A study of Mus musculus with 29 samples.

Results

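Expression in whole livers was compared between 21 days and 1 day after tying off the common bile duct outside the liver (bile duct ligation, BDL), the late and the early end of a mouse time course. The groups were chosen by their titles and labels, with no use of measured values: 5 arrays of BDL at day 21 and 5 arrays of BDL at day 1, which is 10 of the 29 arrays of the series. A check used the 3 BDL day 1 arrays whose log2 values had an SD above 1.6. All animals were male C57BL/6N mice, 8 to 10 weeks old, on standard diet before and after surgery. The title of every array carries the tag wt, read here as wild type. The ligated groups differ in the days since surgery and therefore also in age. The other groups are BDL at days 3 and 7 with 5 arrays each, and sham operated mice (3 arrays for day 1, 2 for day 3, 4 for day 7). A sham group of day 21 was not analysed here, so the length of ligation and the time since surgery cannot be told apart. Titles give each array an animal number of its own, so the p-values rest on the spread from animal to animal as labelled.

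Ligation of the bile duct stops bile flow into the gut, so bile acids and bilirubin build up in the liver and blood. Hepatocytes make bile acids from cholesterol and pump them into canaliculi, and they hold synthesis down through the bile acid receptor Nr1h4 (FXR) and the repressor Nr0b2 (SHP). With lasting obstruction the bile ducts proliferate, stellate cells and portal fibroblasts turn into matrix-producing myofibroblasts, and macrophages gather around ducts and injured parenchyma, so the model is used for biliary fibrosis.

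Values are log2 expression after RMA, a difference is the mean of the day 21 arrays minus that of the day 1 arrays with its SE, and a gene was called at an adjusted p under 0.05 in limma. Of 14699 genes tested, 4718 (32.1%) were called, 3208 (21.8%) higher and 1510 (10.3%) lower at day 21. Counts of called list members below are to be read beside these shares. At least 2-fold differences were found for 632 higher and 78 lower genes. All 5 day 21 arrays lay above all 5 day 1 arrays for 2187 genes (14.9%) and below them for 789 (5.37%). The median difference over all genes was 0.02 and the median SE 0.130. With cyclic loess scaling on top of the deposited values 2742 genes were higher and 2037 lower, so 57.4% of the calls were higher, against 68.0% as deposited.

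The correlation of 2 arrays across genes was 0.979 to 0.990 within day 21, at 0.955 to 0.985 within day 1 and at 0.898 to 0.964 between the days. BDL day 1 replicates 2 and 3 and sham day 1 replicates 1 and 3 stood apart, with SDs of 1.55 to 1.58 against 1.64 to 1.70 on the other 25 arrays. Without these 4 arrays 3085 genes were called and 2832 of them were among the 4718. Of 158 named genes called with all arrays, 133 were also called without the 4 arrays, and most list counts are given with and without them. Hepatocyte markers were high on average: the mean log2 value of 7 of them lay between 12.43 and 12.84 on the 10 arrays. This mean joins markers that moved apart, with Serpina1e called lower (-2.67) and Cps1 (0.67) and Ttr (0.20) called higher. In whole tissue, fewer cells of a type and less RNA per cell cannot be told apart.

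**Figure D1:**
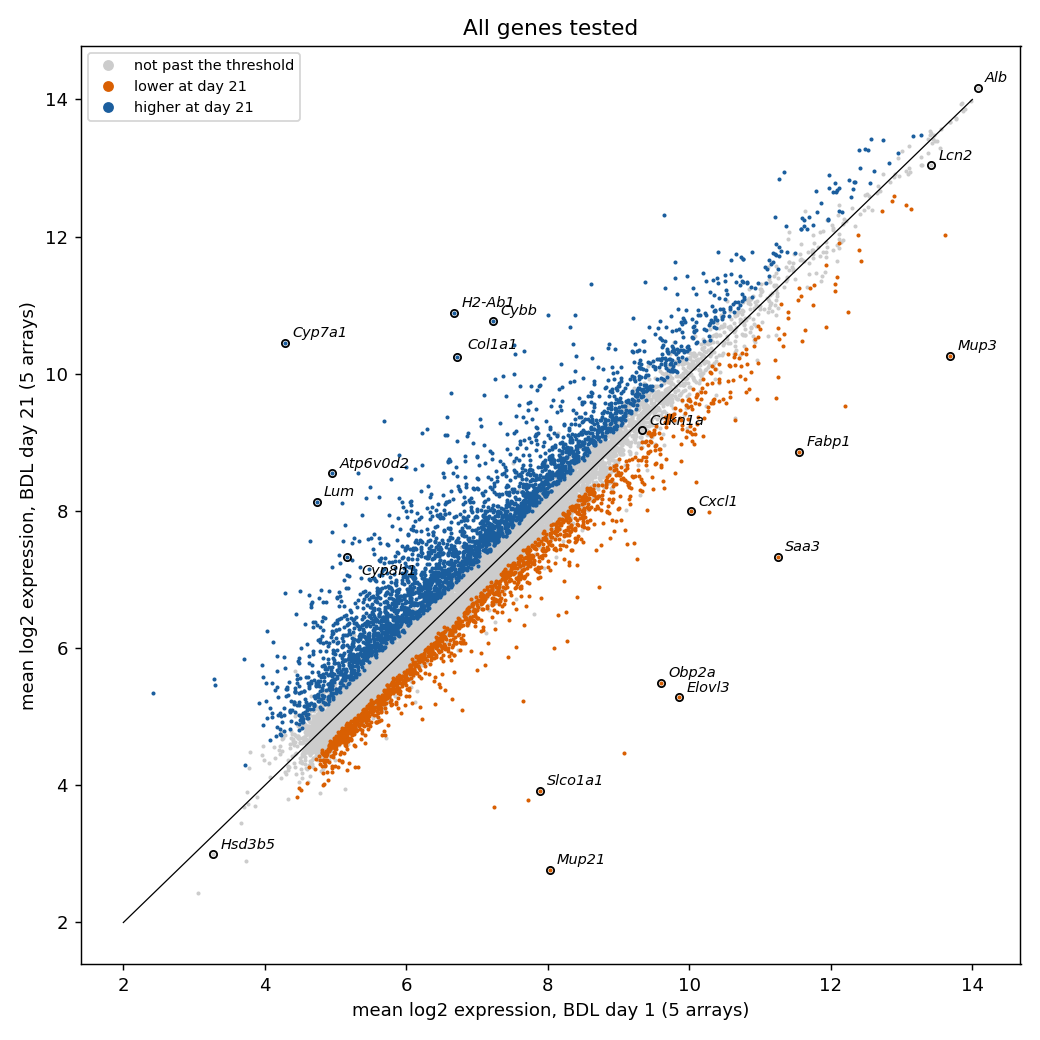
Mean log2 expression of each of the 14699 genes at BDL day 1 (horizontal axis, 5 arrays) and BDL day 21 (vertical axis, 5 arrays), with genes called higher in blue, called lower in orange and the others in grey; the line marks equal levels. Cyp7a1, H2-Ab1 and Col1a1 lie far above the line, Mup21, Slco1a1 and Elovl3 far below it, and Alb, Lcn2 and Cdkn1a close to it.

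The largest rise of all belonged to Cyp7a1, the rate-limiting enzyme of bile acid synthesis. Its log2 values were 5.78, 4.23, 3.21, 3.76 and 4.47 on the day 1 arrays and 10.81, 10.42, 10.06, 10.72 and 10.25 on the day 21 arrays, where values stand in the order of the replicate numbers, so that replicates 2 and 3 of day 1 come from the arrays of low spread. All day 21 arrays were far above all day 1 arrays, and the sham means were 9.94 ± 1.06 (SD, n = 3) at day 1 and 10.60 ± 0.52 (SD, n = 4) at day 7, so the level at day 21 was near that of sham livers. The difference was 6.16 ± 0.75 (adjusted p = 3.5e-07), and 5.78 without the 4 arrays. A mean of a group that lies beneath the filter level of 5, as at day 1 here, was not told apart from background, so the difference has no exact size; the step from 5 to the day 21 mean was 5.45. Cyp8b1, the hydroxylase that makes cholic acid, had values of 5.02, 5.75, 4.79, 5.12 and 5.13 on the day 1 arrays and 7.74, 7.29, 7.43, 7.10 and 7.07 on the day 21 arrays. Its groups did not overlap either and differed by 2.16 ± 0.36 (adjusted p = 4.18e-05), but its sham mean of 10.23 ± 0.30 (SD, n = 3) at day 1 was well above both. The difference between the changes of these genes and the sham change from day 1 to day 7 was tested, and it was 5.51 ± 1.17 for Cyp7a1 (adjusted p = 0.00331) and 2.04 ± 0.57 for Cyp8b1 (adjusted p = 0.0247).

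Of 16 genes of bile acid synthesis and conjugation 5 rose and 0 fell, where 21.8% and 10.3% of all genes did, and the list had a median of 0.17. Besides these enzymes they were the muricholic acid enzyme Cyp2c70 (0.72 ± 0.16), Slc27a5 (0.67 ± 0.13), a bile acid ligase, and the reductase Akr1d1 (0.53). Genes such as Akr1d1, named because they complete a count of 5 or fewer, were chosen after their values were seen. The 5 and 0 were the same counts without the 4 arrays, with a median of 0.02.

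Among 8 uptake carriers of bile acids and organic anions, Slco1a1, a carrier of the hepatocyte's blood side, fell. Its values were 7.57, 8.53, 7.14, 7.79 and 8.39 on the day 1 arrays and 3.45, 4.20, 3.74, 4.24 and 3.98 on the day 21 arrays. The groups were widely separated, and it fell by 3.97 ± 0.32 (adjusted p = 4.6e-10; a step of 2.89 down to the filter level). Without the 4 arrays it fell by 4.00. The bile acid carrier Slc10a2, found on cholangiocytes, also fell (-0.67 ± 0.20), and Slco1a4 rose (0.76 ± 0.29), a call that was lost in 12 of 19 alternatives, without the 4 arrays among them. The main hepatocyte carrier Slc10a1 (NTCP) ranged from 9.86 to 11.07 on the day 1 arrays and from 10.72 to 11.43 on the day 21 arrays. Those groups overlapped, and the difference of 0.52 ± 0.20 did not pass (adjusted p = 0.0514, 95% interval 0.10 to 0.94).

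Of 9 canalicular export genes 3 fell. Abcb11, the bile salt export pump, had values of 12.24, 12.08, 11.71, 12.14 and 12.24 on the day 1 arrays and 11.07, 11.72, 11.51, 11.30 and 11.46 on the day 21 arrays, with 1 day 1 array inside the day 21 range, and it fell by 0.67 ± 0.20 (adjusted p = 0.0122). Abcb4, the phospholipid floppase of bile, fell by 0.99 ± 0.16 with no overlap, and the drug exporter Abcb1a by 0.71 ± 0.21. Abcg2 rose by 0.87 ± 0.19, and by 0.58 without the 4 arrays. On the blood side 3 of 6 export pumps rose and 0 fell: Abcc4 (0.97 ± 0.14), Abcc3 (0.63 ± 0.12) and Abcc1 (0.59 ± 0.15). These counts were the same without the 4 arrays. The sinusoidal exporter Slc51a did not pass the filter, and Slc51b was not analysed here.

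Among 17 hepatocyte transcription factors and receptors 5 fell and 2 rose, and the counts were the same without the 4 arrays, while with cyclic loess 7 fell and 0 rose. Nr0b2, the repressor of bile acid synthesis named above, had values of 9.97, 10.04, 9.71, 10.27 and 10.46 on the day 1 arrays and 8.56, 8.20, 8.28, 8.60 and 8.49 on the day 21 arrays. The groups did not overlap, and it fell by 1.66 ± 0.33 (adjusted p = 0.000279), from a mean above the sham day 1 mean of 9.09 ± 0.58 (SD, n = 3) to one below it. Lower too were Cebpb (-0.95 ± 0.18), a factor of the acute phase response, the drug receptors Nr1i3 (-0.96 ± 0.26; adjusted p = 0.072 without the 4 arrays) and Nr1i2 (-0.76 ± 0.13), and Nr5a2 (-0.39). The bile acid receptor Nr1h4 (0.39) and Cebpa (0.42) rose. Hnf4a was at -0.14 and did not pass.

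Secreted plasma proteins rose in 7 of 26, near the 21.8% of all genes, and fell in 1 (median 0.10), with 3 and 1 without the 4 arrays and 3 and 3 with cyclic loess. Serpina6, corticosteroid-binding globulin, rose from 7.10 ± 0.85 (SD, n = 5) to 9.69 ± 0.41 (SD, n = 5), a difference of 2.58 ± 0.52 (adjusted p = 0.000395), Pros1 (protein S) rose by 1.24 ± 0.16, and coagulation factor F11 fell by 1.32 ± 0.13. Albumin (Alb) was at 0.10 ± 0.06 (adjusted p = 0.246, 95% interval -0.03 to 0.22). Of 15 glucose genes 9 rose and 0 fell (median 0.53), with 6 higher and 1 lower without the 4 arrays. G6pc, the last enzyme of glucose release, had values of 9.62, 7.12, 6.42, 5.82 and 7.85 on the day 1 arrays and 8.51, 10.63, 10.89, 9.47 and 10.36 on the day 21 arrays. The ranges overlapped through the highest day 1 array, and the difference was 2.61 ± 0.56 (adjusted p = 0.000723). Fbp1, an enzyme of gluconeogenesis, rose by 1.27 ± 0.16, as did the pyruvate kinases Pklr (1.11 ± 0.25; 0.74 without the 4 arrays) and Pkm (1.03 ± 0.17).

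Hepatocyte genes differ between the zones around the central vein and the portal tract. Of 17 pericentral genes 4 rose, near the 21.8% of all genes, and 4 fell, beside 10.3% of all genes (1 and 3 without the 4 arrays). Cyp2c50 was at 1.96 ± 0.29, Gulo at 0.85 ± 0.20, Rgn at 0.83 ± 0.27 and Lect2 at -0.68 ± 0.20. The others that fell were Lgr5 (-0.50), Axin2 (-0.41) and Cyp2e1 (-0.30), and Aldh1a1 (0.54) was the other that rose. The calls of Gulo and Rgn were lost without the 4 arrays (adjusted p = 0.0781 and 0.118). Glul, the glutamine synthetase of cells at the central vein, was at 0.64 ± 0.27 and did not pass (adjusted p = 0.0699, 95% interval 0.09 to 1.19). Of 15 periportal genes 6 rose and 0 fell (4 and 0 without the 4 arrays), among them Uox, the urate oxidase (0.98 ± 0.18), Ctsc (1.04 ± 0.22), Etnppl (1.11 ± 0.36) and Otc, an enzyme of the urea cycle (1.01 ± 0.25). Without the 4 arrays Otc and Etnppl did not pass (adjusted p = 0.0613 and 0.0964). The carbonic anhydrase Car3 had values of 7.10, 6.21, 5.88, 6.30 and 7.42 on the day 1 arrays and 8.73, 9.36, 7.90, 10.61 and 10.26 on the day 21 arrays. All day 21 arrays were higher, by 2.79 ± 0.62 on average, yet they stayed below the sham mean of 12.07 ± 0.41 (SD, n = 3) at day 1.

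Genes that are higher in male than in female mouse liver, driven by the male rhythm of growth hormone, fell in 10 of 17 and rose in 0, the lowest list median at -1.19. Mup21, a major urinary protein, had values of 8.04, 8.68, 8.42, 7.71 and 7.29 on the day 1 arrays and 3.09, 3.01, 2.65, 2.81 and 2.30 on the day 21 arrays. Every day 21 array was below every day 1 array by a wide margin, and the gene fell by 5.26 ± 0.31 (adjusted p = 2.13e-12; a step of 3.03 down to the filter level). The fatty acid elongase Elovl3 had values of 10.01, 10.22, 9.16, 9.39 and 10.49 on the day 1 arrays and 4.67, 4.76, 5.49, 5.68 and 5.83 on the day 21 arrays and fell by 4.57 ± 0.41 (adjusted p = 2.11e-09). Cyp4a12a (-3.94 ± 0.31; a step of 2.72 down to the filter level), the sulfotransferase Sult2a8 (-3.55 ± 0.24; a step of 2.23), Mup3 (-3.42 ± 0.17) and Serpina1e (-2.67 ± 0.17) fell as well, all 4 without overlap, and Mup, Cyp4a, Sult and Serpina genes have copies of nearly the same sequence, which makes their values uncertain. At day 1 Mup21 and Mup3 were at 8.03 ± 0.56 (SD, n = 5) and 13.69 ± 0.06 (SD, n = 5), beside sham day 1 means of 9.07 ± 0.59 (SD, n = 3) and 13.74 ± 0.07 (SD, n = 3). The steroid dehydrogenase Hsd3b5 was at background in both groups, 3.27 ± 0.23 (SD, n = 5) and 2.99 ± 0.25 (SD, n = 5), against 8.38 ± 1.08 (SD, n = 3) in sham livers of day 1. Of 7 female-biased genes 3 rose and 0 fell (1 and 0 without the 4 arrays): Prom1, a gene also expressed in bile ducts, Abcd2 (1.18 ± 0.35) and Acot3 (0.65 ± 0.22). Without the 4 arrays 9 male-biased genes were called, all lower.

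**Figure D2:**
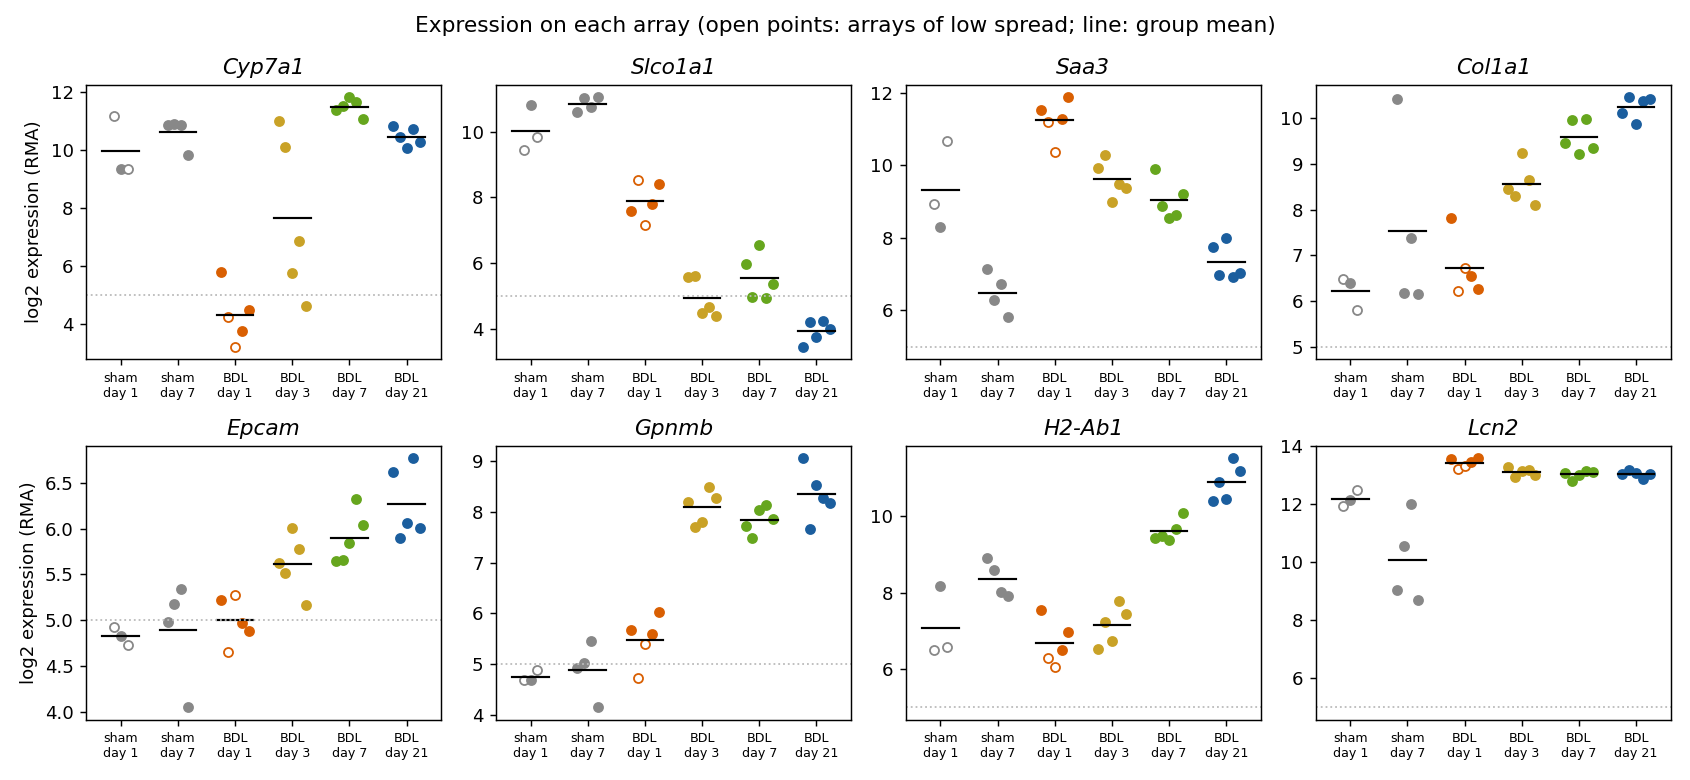
Log2 expression of 8 genes on each array of sham day 1, sham day 7 and BDL days 1, 3, 7 and 21; each point is 1 array, open points are the 4 arrays of low spread, lines are group means and the dotted line is the filter level of 5. Cyp7a1 is near background at BDL day 1 and back in the sham range at day 21, Slco1a1 and Saa3 end low, Col1a1, Epcam, Gpnmb and H2-Ab1 end high, and Lcn2 stays near 13 in all ligated groups.

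Lipid genes moved in both directions. Fabp1, the fatty acid binding protein of hepatocytes, had values of 11.42, 11.55, 11.62, 11.67 and 11.51 on the day 1 arrays and 8.23, 9.23, 8.01, 9.74 and 9.11 on the day 21 arrays. The day 1 arrays lay close together and above all day 21 arrays, and it fell by 2.69 ± 0.36, or 6.45-fold (adjusted p = 1.53e-06). Cd36, a fatty acid and scavenger receptor also found on macrophages, had values of 7.82, 6.91, 6.72, 6.90 and 7.95 on the day 1 arrays and 10.01, 9.73, 10.03, 9.98 and 9.84 on the day 21 arrays and rose by 2.66 ± 0.19, or 6.32-fold, without overlap (adjusted p = 9.52e-11). Among 17 fatty acid oxidation genes 4 rose, near the share of all genes, and 3 fell (2 and 3 without the 4 arrays, 2 and 5 with cyclic loess), with Ehhadh of the peroxisome at 1.09 ± 0.22 and the hormone Fgf21 at -1.23 ± 0.18. Of 17 genes of fatty acid synthesis and storage 3 rose and 5 fell (2 and 5 without the 4 arrays): Scd1 (stearoyl-CoA desaturase, 3.04-fold; adjusted p = 0.1 without the 4 arrays), Srebf1 (1.31 ± 0.27) and Pparg (1.25 ± 0.19) were higher. The lipid droplet gene Cidec fell most in that list, by 1.69 ± 0.37.

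Of 16 cholesterol synthesis genes 9 fell and 0 rose, and 12 fell without the 4 arrays, where the median was -0.90 against -0.63 with all arrays. Pmvk, phosphomevalonate kinase, had values of 10.01, 9.36, 9.27, 10.19 and 10.13 on the day 1 arrays and 8.45, 8.78, 8.26, 8.70 and 8.58 on the day 21 arrays. The groups did not overlap and differed by -1.23 ± 0.22 (adjusted p = 0.000106), which brought the gene from above to near the sham day 1 mean of 8.31 ± 0.56 (SD, n = 3). Mvd (-1.16 ± 0.29), Cyp51 (-0.83 ± 0.29) and Sqle (-0.81 ± 0.30), also enzymes of this pathway, fell too. The calls of Cyp51 and Sqle were lost when some single arrays were left out, with adjusted p up to 0.0796 and 0.0822. The list's mean log2 value per array was 9.88 to 10.59 at day 1, 9.44 to 9.87 at day 21 and 9.24 on average in sham livers of day 1.

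Stress genes were looked at in several lists. The unfolded protein and integrated stress response list fell in 8 of 16 and rose in 0 (9 and 0 without the 4 arrays), led by Creld2 (-0.97 ± 0.23), Atf5 (-0.86 ± 0.16), Sdf2l1 (-0.85 ± 0.25) and Ddit3 (CHOP, -0.78 ± 0.17). Of 16 immediate early genes 2 fell, near the 10.3% of all genes, and 1 rose: Junb (-0.68 ± 0.20), Maff (-0.42 ± 0.13) and, upward, Klf4 (0.45 ± 0.13). Without the 4 arrays 2 fell and 0 rose, but Maff was not among the 2. With the 4 arrays as a term 0 fell and 1 rose. The call of Maff was lost in 3 of 19 alternatives, and those of Junb and Klf4 in 1 each. NRF2 targets rose in 3 of 11, near the 21.8% of all genes, and fell in 0 (1 and 0 without the 4 arrays). Those that rose were Nqo1 (0.94 ± 0.16), Ugdh (0.57 ± 0.18) and Txnrd1 (0.28 ± 0.11), while with cyclic loess 1 rose and 2 fell. In the p53 list 1 of 12 rose and 1 fell, Ccng1 (0.68 ± 0.19) and Gadd45b (-1.09 ± 0.17), and the call of Ccng1 was lost without the 4 arrays (adjusted p = 0.103). Cdkn1a, the cell cycle inhibitor p21, had values of 9.91, 8.71, 8.94, 9.25 and 9.86 on the day 1 arrays and 8.72, 8.62, 9.89, 9.23 and 9.43 on the day 21 arrays. These overlapped fully and differed by -0.15 ± 0.28 (adjusted p = 0.7, 95% interval -0.73 to 0.42), with both groups far above the sham day 1 mean of 5.90 ± 0.38 (SD, n = 3). Among 15 clock genes 1 fell, Cry1 (-0.32 ± 0.12), a call that was lost in 12 of 19 alternatives, without the 4 arrays among them.

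The acute phase list holds proteins that the liver secretes in inflammation, and it fell in 8 of 25 and rose in 1, and without the 4 arrays in 7 and 0. Saa3, a serum amyloid A protein, had values of 11.52, 11.20, 10.37, 11.28 and 11.88 on the day 1 arrays and 7.76, 6.97, 8.00, 6.91 and 7.02 on the day 21 arrays. The groups were far apart, and it fell by 3.92 ± 0.36, or 15.1-fold (adjusted p = 3.03e-09). Saa2 (-1.58 ± 0.46; adjusted p = 0.0611 without the 4 arrays) and Apcs (-0.92 ± 0.24), serum amyloid P, fell too. Lcn2, an iron-binding protein of the acute phase, had values of 13.54, 13.20, 13.31, 13.46 and 13.58 on the day 1 arrays and 13.03, 13.18, 13.07, 12.88 and 13.05 on the day 21 arrays. Each day 21 array lay below each day 1 array, and the difference of -0.38 ± 0.37, with an SE from all 29 arrays, did not pass (adjusted p = 0.455, 95% interval -1.14 to 0.38), except in a fit of the 10 ligated arrays alone (adjusted p = 0.0158). Cd14, a co-receptor for lipopolysaccharide, was the member that rose (0.98 ± 0.29), a call lost without the 4 arrays (adjusted p = 0.3). In sham livers 10 of these 25 genes were called between days 1 and 7.

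Of 19 cytokines, chemokines and their feedback genes 6 fell and 5 rose, the same counts without the 4 arrays. Those that fell were the neutrophil attractants Cxcl1 and Cxcl2, the interferon-induced Cxcl10 (-1.08), Ccl7 (-0.39) and the NF-kappaB feedback genes Tnfaip3 (-0.81) and Nfkbia (-0.71). Those that rose were Cxcl16 (2.14 ± 0.20), a transmembrane scavenger chemokine, Ccl5 (1.56 ± 0.31), Ccl3 (0.89), Il1a (0.88) and Cxcl5 (0.70). Cxcl1 had values of 9.80, 10.11, 10.54, 9.96 and 9.73 on the day 1 arrays and 8.19, 8.35, 7.83, 7.80 and 7.82 on the day 21 arrays. The groups did not overlap, and it fell by 2.03 ± 0.31 (adjusted p = 1.38e-05). Cxcl2 had values of 6.79, 5.80, 6.08, 6.82 and 7.25 on the day 1 arrays and 5.52, 5.26, 5.36, 5.18 and 5.61 on the day 21 arrays and fell by 1.16 ± 0.20 (adjusted p = 4.66e-05). Ccl2, which attracts monocytes, was at -0.12 ± 0.25 (adjusted p = 0.73), near a level of 8 in both groups and at 5.39 ± 0.10 (SD, n = 3) in sham livers of day 1. The promoters of the neighbouring genes Cxcl1 and Cxcl2 are shown because both fell together. They are the last 120 bases before the transcript start, from RefSeq GRCm38.p6, plus strand for both, chr5:90891125-90891244 and chr5:90903779-90903898, with matches to GGNNTTTCC, a kappaB-like pattern, on either strand in capitals.
Cxcl1: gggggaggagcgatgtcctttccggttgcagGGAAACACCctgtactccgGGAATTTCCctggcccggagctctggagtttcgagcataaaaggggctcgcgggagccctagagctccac
Cxcl2: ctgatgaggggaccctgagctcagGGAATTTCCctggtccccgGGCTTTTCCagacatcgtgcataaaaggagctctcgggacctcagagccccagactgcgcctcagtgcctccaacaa
Each promoter held 2 matches, at 89 and 70 bases before the start in Cxcl1 and at 96 and 77 in Cxcl2 (first base of the match). Over the 250 bases before the start, a match was found in 5 of 5 members that fell and are in the promoter table, in 1 of 5 that did not pass and in 0 of 2 that rose, and in 5.62% of the promoters of 27025 genes. The motif was chosen after the values were seen, and a match describes letters, not a bound site.

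The interferon list rose in 5 of 15 and fell in 1, beside 21.8% and 10.3% of all genes (3 and 1 without the 4 arrays). Oasl2 (1.43 ± 0.22, a step of 1.26 above the filter level), Bst2 (1.05 ± 0.28, adjusted p = 0.114 without the 4 arrays) and Gbp3 (0.91 ± 0.22) were higher. Mx2 (-0.89 ± 0.24) was lower. Of 13 neutrophil markers 2 fell, near the 10.3% of all genes, and 0 rose, with and without the 4 arrays. Those that fell were S100a9 (-0.89 ± 0.29) and Retnlg (-1.05 ± 0.33). The call of Retnlg was lost without BDL day 1 replicate 5 (adjusted p = 0.0583), the array with the highest S100a8, and that of S100a9 in 5 of 18 alternatives, this one included (adjusted p up to 0.0708); both day 21 means were under 5. The mean log2 value of the neutrophil list was 5.99 to 6.68 on the day 1 arrays and 5.63 to 6.34 on the day 21 arrays, which overlap.

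Bile duct markers were higher at day 21 almost as a whole. Of 15 cholangiocyte markers 13 rose and 0 fell (12 and 0 without the 4 arrays), with a median of 0.93, and their mean log2 value was 5.62 to 5.97 on the day 1 arrays and 6.61 to 7.11 on the day 21 arrays. Krt19, a keratin of bile ducts, had values of 5.87, 5.37, 5.81, 5.35 and 5.70 on the day 1 arrays and 6.48, 6.39, 6.40, 6.79 and 6.41 on the day 21 arrays and rose by 0.87 ± 0.12 (adjusted p = 2.03e-06). The adhesion molecule Epcam had values of 5.22, 4.65, 5.27, 4.97 and 4.88 on the day 1 arrays and 6.62, 5.90, 6.06, 6.77 and 6.01 on the day 21 arrays and rose by 1.27 ± 0.21 (adjusted p = 3.55e-05). Prom1, a marker of duct and progenitor cells, had values of 5.40, 3.81, 4.05, 4.61 and 4.38 on the day 1 arrays and 6.49, 7.06, 5.72, 6.50 and 6.70 on the day 21 arrays, a rise of 2.05 ± 0.28 (adjusted p = 2.02e-06) from a day 1 mean under the filter level (a step of 1.49 above it). In none of these genes did the groups overlap. Cd24a (1.47 ± 0.18), Muc1 (1.38 ± 0.18) and Krt7 (0.84 ± 0.19) rose as well. Sox9, the transcription factor of the biliary lineage, had values of 9.12, 8.30, 8.67, 9.03 and 9.84 on the day 1 arrays and 8.45, 9.02, 9.52, 9.27 and 9.06 on the day 21 arrays. These overlapped and differed by 0.07 ± 0.23 (adjusted p = 0.836, 95% interval -0.40 to 0.55), both means above the sham day 1 mean of 7.54 ± 0.20 (SD, n = 3). Krt23 (0.64) was the other member that did not pass.

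Genes of the scar rose in large number. Of 20 markers of stellate cells and myofibroblasts 17 rose and 0 fell (16 and 0 without the 4 arrays), with a median of 1.50, the highest of the lists. Collagen chains rose in 15 of 19 and fell in 1, Col5a3 (-0.73), with a median of 0.88 (13 and 1 without the 4 arrays). Col1a1, a chain of type I collagen, had values of 7.81, 6.21, 6.73, 6.55 and 6.27 on the day 1 arrays and 10.11, 10.46, 9.88, 10.37 and 10.42 on the day 21 arrays. The day 21 arrays were closely grouped and above all day 1 arrays, by 3.53 ± 0.48, or 11.6-fold (adjusted p = 2.02e-06), and by 3.37 without the 4 arrays. Col3a1 had values of 7.66, 5.94, 6.40, 6.49 and 6.69 on the day 1 arrays and 9.47, 9.82, 9.67, 10.02 and 9.66 on the day 21 arrays and rose by 3.09 ± 0.35 (adjusted p = 1.07e-07). Col1a2 (2.90 ± 0.39) and Col14a1 (2.65 ± 0.21) followed. Lum, lumican, a proteoglycan that binds collagen fibrils, had values of 4.91, 4.60, 4.75, 4.87 and 4.53 on the day 1 arrays and 7.62, 7.84, 8.30, 8.86 and 8.06 on the day 21 arrays. It was under the filter level on all day 1 arrays, and its difference was 3.40 ± 0.25 (adjusted p = 1.03e-10; a step of 3.14 above the filter level).

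Among the stellate cell genes the receptor Pdgfrb (2.45 ± 0.23), Cygb (2.26 ± 0.22), a globin of quiescent stellate cells, and the proteoglycan Dcn (1.96 ± 0.16) rose too. Acta2, the smooth muscle actin of activated cells, had values of 7.78, 6.97, 7.57, 7.18 and 7.09 on the day 1 arrays and 8.80, 8.78, 8.47, 9.04 and 8.54 on the day 21 arrays and rose by 1.41 ± 0.26 (adjusted p = 0.000125). Timp1, an inhibitor of matrix proteases, had values of 5.53, 4.94, 5.23, 4.83 and 5.26 on the day 1 arrays and 6.97, 6.67, 7.20, 7.36 and 7.12 on the day 21 arrays and rose by 1.91 ± 0.23 (adjusted p = 4.6e-07). Neither gene's groups overlapped. Of 16 matrix remodelling genes 11 rose and 0 fell (10 and 0 without the 4 arrays), led by the gelatinase Mmp2 (2.56 ± 0.24), Sparc (2.19 ± 0.23), Timp3 (2.11 ± 0.27), Timp2 (2.09 ± 0.18) and the macrophage elastase Mmp12 (1.88 ± 0.19). Of 13 basement membrane genes 10 rose and 0 fell with and without the 4 arrays, the laminin chains Lamb1 (1.34 ± 0.13), Lama2 (1.23 ± 0.15) and Lama5 (1.10 ± 0.11) and the proteoglycan Hspg2 (1.19 ± 0.12) most. Of 20 genes of TGF-beta signalling and growth factors 13 rose and 0 fell (12 and 0 without the 4 arrays), with Tgfbi (1.56 ± 0.16), the latent binding protein Ltbp4 (1.54 ± 0.18) and the ligands Tgfb2 (1.53 ± 0.14) and Tgfb1 (1.48 ± 0.17). Gdf15 was not analysed here.

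Sham livers give the background for this change. At sham day 7, replicate 1 had a Col1a1 value of 10.43 and the other arrays 6.16 to 7.38, and the difference between the ligated and the sham change of Col1a1, 2.22 ± 0.75, did not pass (adjusted p = 0.0713). For Col3a1 it was 2.46 ± 0.54 (adjusted p = 0.0046), for Lum 2.51 ± 0.39 (adjusted p = 0.000162) and for Timp1 1.63 ± 0.37 (adjusted p = 0.0053), and these passed. For Acta2 it was 0.33 ± 0.40 (adjusted p = 0.715).

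**Figure D3:**
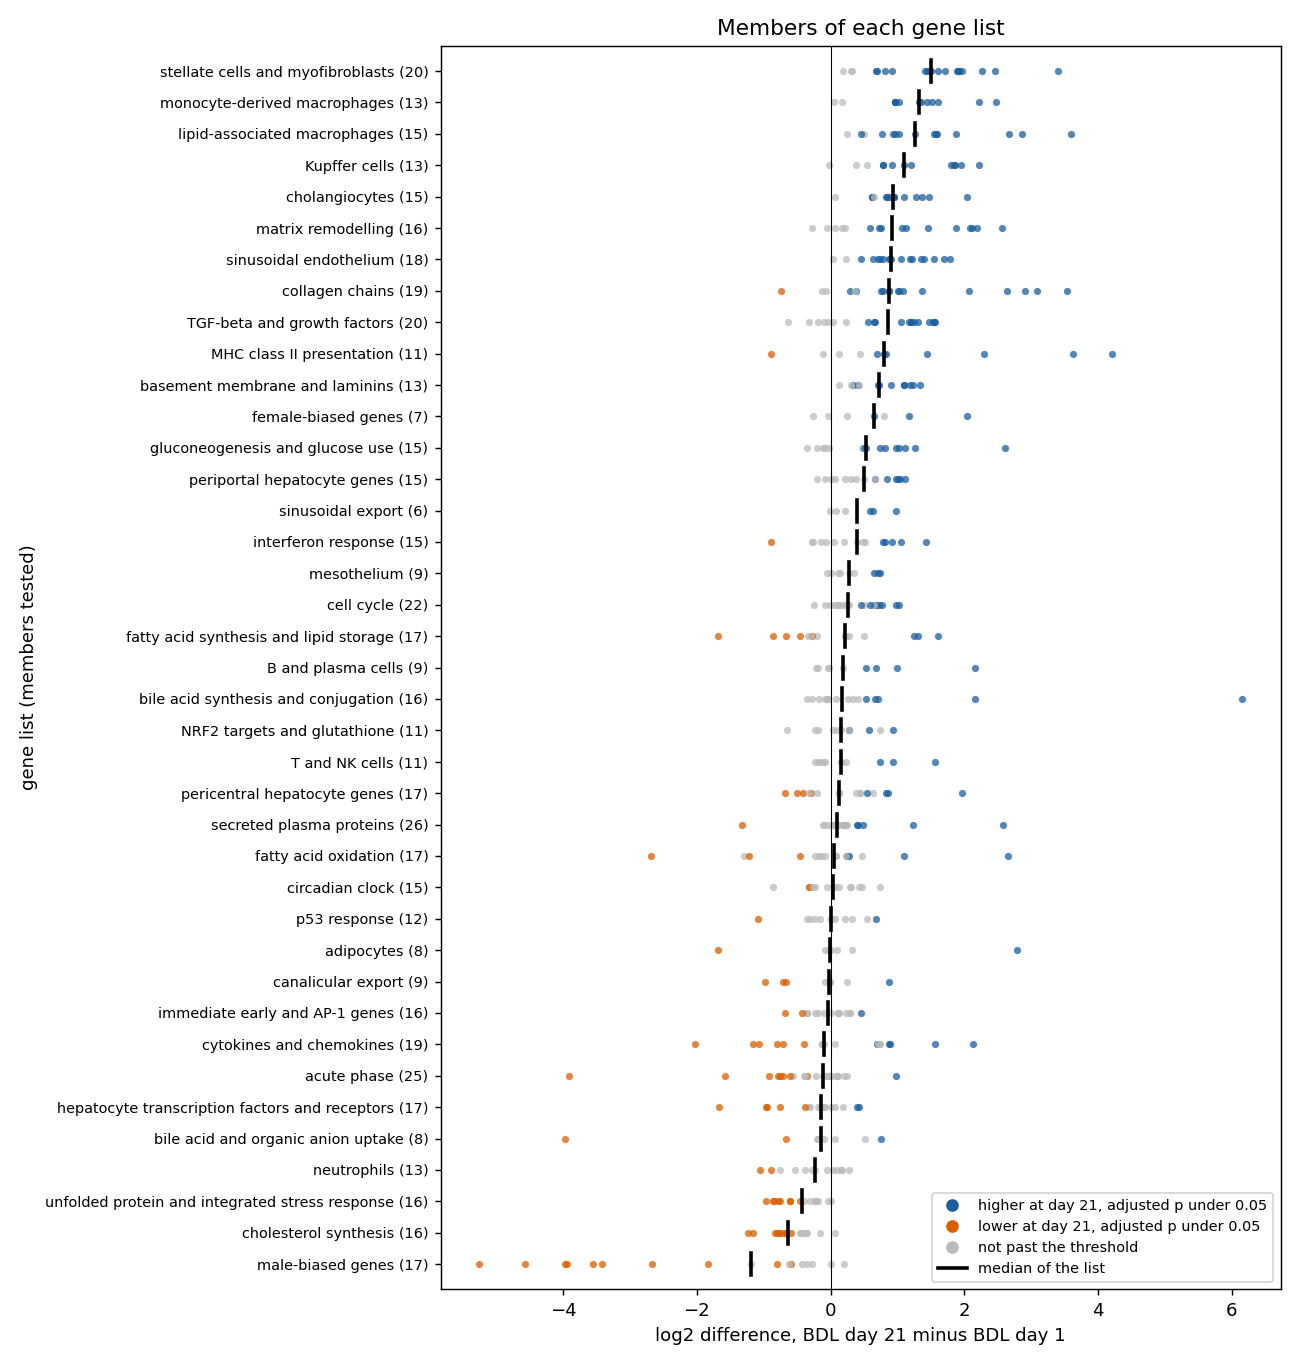
Log2 difference of each tested member (BDL day 21 minus BDL day 1) in each of the gene lists, ordered by list median (black bar), with members called higher in blue, called lower in orange and not called in grey; numbers in brackets count the members tested. Stellate cell, macrophage and cholangiocyte markers stand at the top with medians of 0.93 to 1.50, and male-biased genes at the bottom with -1.19.

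Macrophage genes rose in all 3 lists. Of 13 monocyte-derived macrophage markers 11 rose (median 1.33), of 15 markers of lipid-associated macrophages 13 (median 1.27) and of 13 Kupffer cell markers 10 (median 1.10), and 0 fell in any of them. Without the 4 arrays 10, 13 and 9 rose. Csf1r, the receptor for macrophage colony stimulating factor, had values of 7.68, 7.52, 6.96, 7.17 and 8.24 on the day 1 arrays and 9.68, 9.96, 10.05, 10.32 and 9.95 on the day 21 arrays and rose by 2.48 ± 0.22, or 5.57-fold (adjusted p = 1.53e-09). The glycoprotein Gpnmb had values of 5.68, 4.73, 5.39, 5.58 and 6.02 on the day 1 arrays and 9.07, 7.67, 8.54, 8.29 and 8.17 on the day 21 arrays and rose by 2.87 ± 0.26 (adjusted p = 2.57e-09). Atp6v0d2, a subunit of the proton pump of lysosomes, had values of 5.08, 4.69, 4.52, 5.29 and 5.18 on the day 1 arrays and 9.18, 8.09, 7.85, 8.93 and 8.69 on the day 21 arrays and a rise of 3.60 ± 0.32 (adjusted p = 1.88e-09). In these genes all day 21 arrays were above all day 1 arrays. The lipoprotein lipase Lpl (2.67 ± 0.28), Trem2 (1.55 ± 0.17), a lipid receptor, Ms4a7 (2.23 ± 0.20; a step of 1.25 above the filter level), lysozyme Lyz2 (1.61 ± 0.21) and Cd68 (1.52 ± 0.22) rose too. Cybb, the catalytic subunit of the phagocyte NADPH oxidase (3.56 ± 0.37), the beta-glucan receptor Clec7a (3.24 ± 0.26) and Ly86 (2.92 ± 0.22) were among the 15 largest rises over all genes.

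Within the Kupffer cell list the complement receptor Vsig4 had values of 7.61, 7.59, 7.28, 7.29 and 8.23 on the day 1 arrays and 9.46, 9.64, 10.08, 10.27 and 9.68 on the day 21 arrays and rose by 2.22 ± 0.25 (adjusted p = 9.98e-08). Adgre1 (F4/80, 1.96 ± 0.21) and Cd5l (1.86 ± 0.23) rose as well, and so did Cdh5 (1.84 ± 0.17), which is better known as a cadherin of endothelium. The scavenger receptor Marco had values of 9.47, 9.33, 9.12, 9.42 and 10.16 on the day 1 arrays and 9.25, 9.35, 9.89, 9.68 and 9.23 on the day 21 arrays. Its groups overlapped and differed by -0.02 ± 0.26 (adjusted p = 0.958, 95% interval -0.54 to 0.50), and both were above the sham day 1 mean of 7.51 ± 0.41 (SD, n = 3). The mean log2 value of the Kupffer list was 7.63 to 8.51 on the day 1 arrays, 8.85 to 9.53 on the day 21 arrays and 8.16 on average in sham livers of day 1.

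Genes of MHC class II, which present peptides to helper T cells, held the largest rises after Cyp7a1. H2-Ab1, a beta chain, had values of 7.56, 6.30, 6.07, 6.50 and 6.97 on the day 1 arrays and 10.40, 10.89, 10.45, 11.52 and 11.20 on the day 21 arrays. The lowest day 21 array was far above the highest day 1 array, and the rise was 4.22 ± 0.30, or 18.6-fold (adjusted p = 7.55e-11), and 3.89 without the 4 arrays. The alpha chain H2-Aa had values of 6.32, 5.34, 5.56, 5.63 and 5.56 on the day 1 arrays and 8.90, 9.26, 8.79, 9.89 and 9.71 on the day 21 arrays and rose by 3.63 ± 0.25, or 12.3-fold (adjusted p = 3.21e-11). H2-Eb1 had values of 7.47, 7.03, 7.02, 6.81 and 6.86 on the day 1 arrays and 8.91, 9.35, 8.93, 10.00 and 9.49 on the day 21 arrays and rose by 2.30 ± 0.20 (adjusted p = 1.49e-09). Of 11 genes of the list 7 rose and 1 fell, Cd209a (-0.89), and 8 rose and 0 fell without the 4 arrays. The others that rose were H2-DMa (1.44 ± 0.20), which loads peptides, the class II transactivator Ciita (0.83) and the costimulators Cd86 (0.80) and Cd80 (0.70). At BDL day 3 H2-Ab1 was still at 7.15 ± 0.51 (SD, n = 5), and at day 7 at 9.61 ± 0.28 (SD, n = 5), beside 8.36 ± 0.48 (SD, n = 4) in sham livers of day 7. Cd74 was not analysed here.

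Promoters of the neighbouring genes H2-Aa and H2-Eb1 are shown because both rose several-fold. They are the 120 bases before the transcript start from RefSeq GRCm38.p6, at chr17:34287824-34287943 on the minus strand and chr17:34305747-34305866 on the plus strand, with matches to ATTGG or its reverse complement CCAAT, the core of the Y box of class II promoters, in capitals.
H2-Aa: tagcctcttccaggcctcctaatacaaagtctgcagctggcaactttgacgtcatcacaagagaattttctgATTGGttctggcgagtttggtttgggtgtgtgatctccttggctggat
H2-Eb1: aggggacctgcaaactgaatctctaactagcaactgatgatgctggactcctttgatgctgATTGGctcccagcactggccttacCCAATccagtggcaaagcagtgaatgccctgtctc
H2-Aa held 1 match, 48 bases before the start, and H2-Eb1 2, at 59 and 35. Over 250 bases before the start a match was found in 3 of 4 class II list members that rose and are in the table, in 2 of 3 that did not pass, in 0 of 1 that fell and in 37.5% of the promoters of 27025 genes. The pattern is short and common, and this choice too was made after the values were seen. H2-Ab1, Ciita and Cd86 are not in the table.

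Lymphocyte markers were called in part, where 21.8% of all genes were called higher. Of 9 B and plasma cell markers 4 rose and 0 fell (3 and 0 without the 4 arrays), with a list median of 0.19. Jchain, the joining chain of secreted antibodies, had values of 3.50, 3.21, 3.25, 3.43 and 3.10 on the day 1 arrays and 5.12, 5.71, 5.02, 5.95 and 5.49 on the day 21 arrays. All day 21 arrays were above 5 and all day 1 arrays under it, with a difference of 2.16 ± 0.18 (adjusted p = 7.35e-10; a step of 0.46 above the filter level). Ighm (1.00 ± 0.17), Cd22 (0.68 ± 0.14) and Sdc1 (0.53 ± 0.12; adjusted p = 0.0581 without the 4 arrays) were the others, and the immunoglobulin segment Igkv9-120 rose from a day 1 mean far under the filter level, with a step of 0.34 above it. The B and plasma cell markers Pax5 (-0.22), Cd79a (-0.18), Cd79b (0.19), Xbp1 (-0.04) and Mzb1 (-0.02) did not pass. Of 11 T and NK cell markers 3 rose with and without the 4 arrays, near the share of all genes, and the list median was 0.15. Those that rose were Ccl5, Cd3g (0.94 ± 0.24, a step of 0.37 above the filter level) and Cd3e (0.75 ± 0.22, a step of 0.58). Cd3d was at -0.23 and Cd4 at 0.15.

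Sinusoidal endothelial markers rose in 16 of 18 and fell in 0 (15 and 0 without the 4 arrays), with a median of 0.90. Dnase1l3, a secreted nuclease, had values of 6.79, 5.97, 6.08, 6.35 and 5.86 on the day 1 arrays and 7.80, 7.90, 7.83, 8.38 and 7.65 on the day 21 arrays. Day 21 was above day 1 throughout, by 1.70 ± 0.24 (adjusted p = 3.21e-06), and near the sham day 1 mean of 7.67 ± 0.72 (SD, n = 3). Ehd3 (1.79 ± 0.26), the receptor Kdr (1.55 ± 0.17) and Clec4g (1.40 ± 0.23) rose alongside. The list's mean log2 value was 6.59 to 6.95 on the day 1 arrays, 7.64 to 8.01 at day 21 and 7.31 on average in sham livers of day 1. The difference between the ligated and the sham change passed for 2 of the 18.

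Markers of tissue outside the lobule were called in part, to be read beside the 21.8% of all genes called higher and the 10.3% called lower. Of 9 mesothelial markers 3 rose (2 without the 4 arrays), Podxl (0.73 ± 0.16), Msln (0.71 ± 0.19) and Gpm6a (0.65 ± 0.25), of 8 adipocyte markers Car3 rose and Cidec fell, of 4 pancreatic markers Cel fell (-0.45 ± 0.12; a step of 0.13 down to the filter level) and of 4 erythroid markers Slc4a1 fell (-0.47 ± 0.16; adjusted p = 0.229 without the 4 arrays). The call of Gpm6a was lost in 11 of 19 alternatives, without the 4 arrays among them. Most listed pancreatic and erythroid markers, 13 and 16 in number, were not tested, the hemoglobin genes among them. The pancreatic list averaged 5.29 to 5.47 on the day 1 arrays and 5.11 to 5.31 on the day 21 arrays, near the filter level.

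Of 22 cell cycle genes 8 rose and 0 fell, and 2 rose without the 4 arrays. Mki67, a proliferation marker, had values of 5.93, 5.78, 5.12, 5.23 and 5.56 on the day 1 arrays and 6.70, 6.66, 5.86, 6.91 and 6.36 on the day 21 arrays. The ranges overlapped through 1 day 21 array, and the rise was 0.98 ± 0.22 (adjusted p = 0.00103). The replication helicase genes Mcm6 (1.02 ± 0.25) and Mcm4 (0.77 ± 0.22) and the cyclin Ccnb2 (0.72 ± 0.21) rose too, but not without the 4 arrays (adjusted p = 0.0614, 0.0977 and 0.0587). Ccnd1, cyclin D1, was at -0.08 ± 0.26 (adjusted p = 0.831, 95% interval -0.62 to 0.45). Mki67 was higher at the days between, with 7.26 ± 0.42 (SD, n = 5) at BDL day 3 and 7.63 ± 0.49 (SD, n = 5) at BDL day 7, than at day 21 with 6.50 ± 0.41 (SD, n = 5).

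Days 3 and 7 show the course between the ends. Of the 611 genes that rose at least 2-fold without overlap, the means of 449 climbed at each step through days 3 and 7, and 119 were higher at day 7 than at day 21. At the median, 48.7% of the difference was present at day 3 and 84.5% at day 7. Of the 56 genes that fell at least 2-fold without overlap 29 descended at each step and 9 were lower at day 7 than at day 21, with medians of 53.2% and 77.7%. These shares use the same day 1 and day 21 arrays that chose the genes and carry no test. Gpnmb had nearly reached its late level by day 3 (8.10 ± 0.33 (SD, n = 5)), Jchain was still at 3.75 ± 0.42 (SD, n = 5) at day 7, and Cyp7a1 had passed its late level at day 7 (11.47 ± 0.28 (SD, n = 5)). The lipocalin gene Obp2a was among the largest falls (-4.11 ± 0.72). Its mean was 10.60 ± 1.57 (SD, n = 5) at day 3 and 9.61 ± 1.35 (SD, n = 5) at day 1, a gap smaller than either SD that was not tested.

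**Figure D4:**
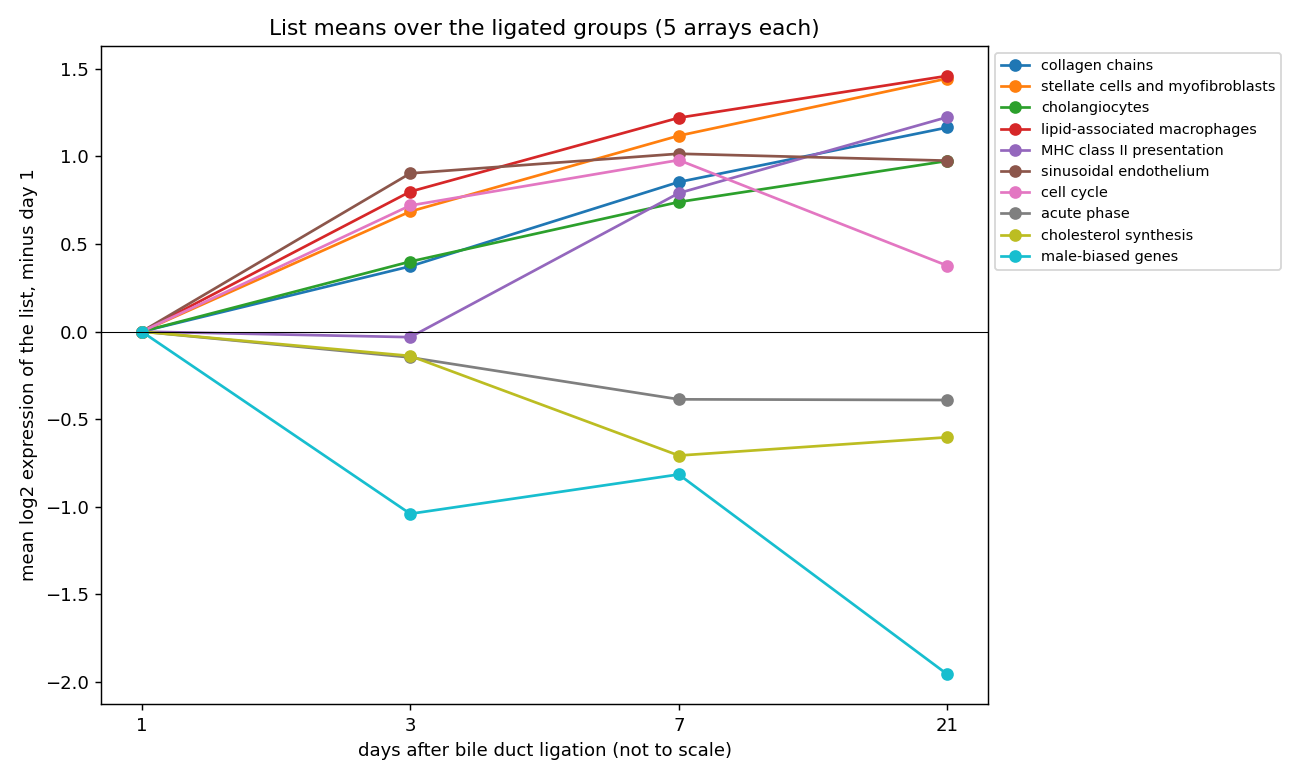
Mean log2 expression of the tested members of 10 gene lists at BDL days 1, 3, 7 and 21, each minus its day 1 value (5 arrays per day; the day axis is not to scale). Collagen, stellate cell and cholangiocyte lists climb at every step, MHC class II starts after day 3, the cell cycle list peaks at day 7, and male-biased genes end lowest.

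In sham livers 604 genes (4.11%) were called between days 1 and 7, 435 higher and 169 lower, a count that single arrays moved widely. Without the 4 arrays, which leaves 1 sham array of day 1, 1 gene was called, without sham day 1 replicate 2 the count was 3040, and without sham day 7 replicate 3 it was 80. The change from day 1 to day 21 of ligation minus that from day 1 to day 7 of sham, with days that do not match, was called for 1073 genes (7.3%), 806 higher and 267 lower, and for 628 without the 4 arrays. Among the largest of these differences were those of Cyp7a1, Slco1a1 (-4.79 ± 0.50), Elovl3 (-4.67 ± 0.64) and Mup21 (-4.64 ± 0.48). On the rising side Atp6v0d2 (3.36 ± 0.50) and H2-Ab1 (2.95 ± 0.48) were among them too. Saa3, at -1.10 ± 0.56, did not pass (adjusted p = 0.277), with sham means of 9.31 ± 1.23 (SD, n = 3) at day 1 and 6.49 ± 0.57 (SD, n = 4) at day 7.

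Among the 15 largest falls were 2 genes of small nucleolar RNAs, Snord118 (-2.42 ± 0.36) and Snora62. Snora62 had values of 9.25, 11.50, 11.69, 10.30 and 8.64 on the day 1 arrays and 8.01, 7.96, 7.83, 7.77 and 8.33 on the day 21 arrays. The highest values were those of the low-spread arrays, and without the 4 arrays it fell by 1.42. The mean log2 value of 71 genes of small nucleolar RNAs was 9.02 to 9.43 on the low-spread BDL day 1 arrays, 8.01 to 8.48 on the other BDL day 1 arrays and 7.81 to 8.14 at day 21, and the part of array spread in the result was not tested.

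**Figure D5:**
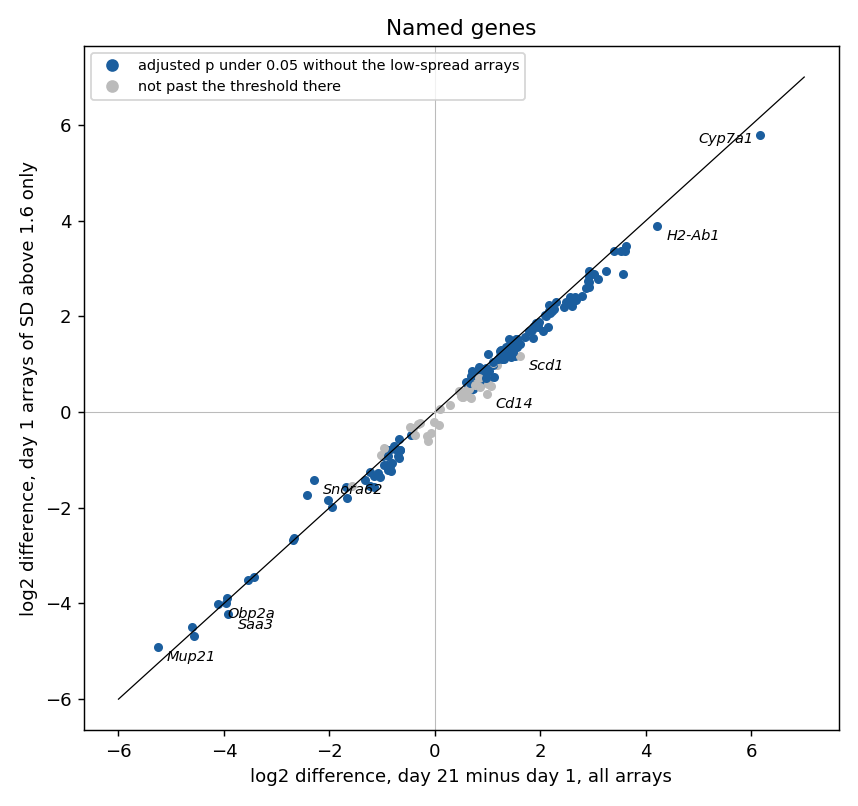
Log2 difference (BDL day 21 minus day 1) of the named genes with all arrays (horizontal axis) and without the 4 arrays of low spread, which leaves the 3 BDL day 1 arrays of SD above 1.6 (vertical axis); the line marks equal values, and grey genes had an adjusted p of 0.05 or more without the 4 arrays. Snora62 moved from -2.30 to -1.42, and Scd1 and Cd14 are among those that did not pass.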

How the data were processed

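Each array has 1 column of deposited log2 values. Per the submitters' processing notes, oligo 1.52.0 was used with RMA, a method that subtracts background, gives all arrays a shared distribution and summarises probes. Differences at the highest levels may be compressed on arrays, which was not tested. The genome build, and which arrays were normalized together, are not given in the sources used here. Row identifiers match the annotation of a Mouse Gene 2.0 ST design, from which gene names were taken, although the array named per the labels' protocols is Mouse Genome 430 2.0. Of 41345 rows 23521 had 1 symbol, 1814 several and 16010 none; 23328 were in a RefSeq table of GRCm38.p6, used for current symbols. The row of highest mean stood for a gene (22180 genes), and 14699 genes above 5 in at least 3 arrays were tested.

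limma 3.58.1 under R 4.3.3 (lmFit, eBayes) was fitted to all 29 arrays in 7 groups with no covariate, with Benjamini-Hochberg adjustment over the genes tested, two-sided, and tested on simulated data. Replicate numbers are accession order. Named were the 15 largest rises and falls past the threshold with the brighter group above the filter and no overlap, the 10 largest differences between ligated and sham change, up to 4 members of each list with the largest difference and genes always reported; predicted genes were passed over. Of the 15 largest rises, Rragd (3.02), Gabrp (2.93) and Sparcl1 (2.92) are given only here. Of the 15 largest falls this holds for Serpina4-ps1 (-4.60) and Fabp2 (-1.96). Sizes are not exact where a group mean lies under 5. Members and lists were chosen with earlier results of these data known. Alternatives were no filter, a stricter filter (6 in 5 arrays), the mean of rows, cyclic loess, trend and robust eBayes, array weights, the 4 arrays of low spread as a term or left out, the 10 ligated arrays alone and each array left out.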

Additional observations from a re-analysis of the deposited data

Results flagged for a closer look

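Of 84 sets of 5 arrays looked at, for 42 genes at BDL day 1 and day 21, 2 held an array far from the rest, and chance gives about 1 in 20. Krt19 at BDL day 21 had replicate 4 at 6.79, with the next highest array at 6.48, a gap that was 0.761 of the group's range. S100a8 at BDL day 1 had replicate 5 at 7.51, with the next highest at 6.11, a gap of 0.71 of the range. Neither is an array of low spread.

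The change from day 1 to day 21 of ligation differed from the change from day 1 to day 7 of sham for 22 of the 42 genes. This was a test of the difference in limma, which called 7.3% of all genes. Many of the 42 were shown for their large ligated change, which is part of this difference. The count of 22 is therefore a description and lends no support. It was higher in ligated livers for Cyp7a1 (5.51), Cyp8b1 (2.04), Cd36 (2.47), Col3a1 (2.46), Lum (2.51), Timp1 (1.63), Krt19 (0.85), Epcam (1.21), Prom1 (2.05), Gpnmb (2.73), Atp6v0d2 (3.36), Csf1r (2.08), Vsig4 (1.93), H2-Ab1 (2.95), H2-Aa (2.86), H2-Eb1 (1.99) and Jchain (1.71) on the log2 scale. It was lower for Fabp1 (-2.70), Mup21 (-4.64), Slco1a1 (-4.79), Elovl3 (-4.67) and Pmvk (-1.66). The highest adjusted p among the 22 was 0.0247. The later days of the 2 changes do not match, and 2 of the 3 sham day 1 arrays are of low spread.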

How the results depend on the processing

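No paired analysis was possible because the labels share no replicate numbers between groups. Of 158 named genes called, 127 were called in each of up to 19 alternatives, none changed sign, and 8 of 11 not called gained no call; Glul, Slc10a1 and Lcn2 did. With the 4 arrays of low spread as a term, 990 genes fell from day 1 to day 21 of ligation; without these arrays 3085 were called and 929 fell. Leaving out 1 array gave 3577 to 5113 calls, 2563 to 3482 higher and 1014 to 1665 lower. The sham change gave 273 higher with no filter and 268 with cyclic loess, 1879 calls (1392 higher, 487 lower) with array weights, 1 (0 and 1) with the term and 1 (1 and 0) without the 4 arrays, and 2 to 3040 calls (1 to 2105 higher, 1 to 935 lower) with 1 array left out: 12 without sham day 1 replicate 1, 2 without replicate 3, and 80, 202, 260 and 311 without day 7 replicates 3, 4, 1 and 2. The difference between the changes gave 606 lower with array weights, 628 calls (515 higher, 113 lower) without the 4 arrays, where 1 sham day 1 array is left and assumed to vary like other groups, and 810 to 1289 calls (648 to 865 higher, 142 to 563 lower) with 1 array left out. Causes were not tested. Fewer samples remain without the 4 arrays. The number of arrays limits the precision, and levels under 5 have no exact size.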

Other observations

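Groups of related genes that the lists do not hold were looked at after the values were seen, so their counts are descriptions, to be read beside the 21.8% of all genes called higher and the 10.3% called lower. Of 5 subunits of the phagocyte NADPH oxidase, which makes superoxide, all 5 rose from day 1 to day 21 of ligation (4 without the 4 arrays of low spread), with Cybb at 3.56 ± 0.37 (SE) and Rac2 at 1.29 ± 0.15. Of 6 Fc receptor genes, which bind antibodies, 6 rose with and without these arrays, with Fcgr4 at 2.45 ± 0.24, Fcgr1 at 2.02 ± 0.19 and the shared signalling chain Fcer1g at 2.00 ± 0.20. Of 10 immunoglobulin segments 8 rose and 0 fell with and without them (median 1.30), Igh-VS107 from a mean of 5.23 to 7.54; such segments resemble each other closely, and their values are uncertain.

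Atp6v0d2 stood out among subunits of the vacuolar proton pump: 5 of 19 rose (3 without the 4 arrays), near the share of all genes, and the next largest differences were those of Atp6v1b2 (0.87 ± 0.17) and Atp6v1a (0.65 ± 0.12). Small nucleolar RNAs fell in 36 of 71 and rose in 1 (median -0.56), but without the 4 arrays they fell in 10 and rose in 1 (median -0.24).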
